A study of Saccharomyces cerevisiae with 54 samples.

Results

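Translation efficiency, the ribosome footprints on a gene relative to its mRNA, was measured within a single state of yeast meiosis, cells taken 6 h after transfer to sporulation medium. The members were the 6 libraries of that time, 3 of ribosome footprints and 3 of mRNA, out of 54 samples in the series, and the genes were the 5631 of 6679 listed whose mean mRNA level over the 3 mRNA libraries was at least 20 RPKM (reads scaled by gene length and library size). The series followed budding yeast of the SK1 background through sporulation with sequencing of ribosome footprints, of mRNA and of total RNA. Each 6 h assay held 1 library from a time course and 2 libraries that were prepared in parallel with those of other times. All 6 h libraries came from cells of that background in sporulation medium, with no mutant allele, drug or ploidy given in the labels for them. Footprint libraries were made from frozen lysates broken in a mixer mill, and mRNA libraries from RNA taken with hot acid phenol. Libraries of 3 h and 1.5 h with the same assays served as the comparison in time. Since nothing in the labels ties the libraries of a group to separate cultures, a p-value here measures how far these libraries scatter, which may be technical.

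In ribosome profiling, lysate is treated with a nuclease and the stretches of mRNA held inside ribosomes are sequenced, so that the footprints on a gene follow both how much mRNA there is and how many ribosomes each mRNA carries. Dividing footprints by mRNA leaves the second quantity. It changes with initiation at the start codon, with upstream open reading frames that take up scanning ribosomes, with RNA-binding proteins that hold an mRNA in a translationally silent state, and with transcript isoforms whose extended leaders prevent use of the coding sequence. Sporulating yeast is a classical setting for all of these: the meiotic RNA-binding protein Rim4 holds some mRNAs silent until the meiotic divisions, and long undecoded isoforms repress NDC80. The transcription factor Ndt80 switches on the middle genes of the divisions and of spore formation.

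The libraries carried the marks of cells in the meiotic divisions. Footprints of NDT80 were 3034 to 3247 RPKM at 6 h, against 173 to 203 RPKM at 3 h, and those of the B-type cyclin CLB1 were 1952 to 2319 RPKM at 6 h, against 29.1 to 36.3 RPKM at 3 h. The 6 h libraries held 7.48, 4.67 and 1.39 recovered counts of footprints (course, parallel replicate 1, parallel replicate 2; in units of 1000000) and 20.9, 2.45 and 8.28 of mRNA. These counts were recovered from the RPKM values and may be in a unit other than single reads. Across genes, log2 levels correlated at Pearson's r of 0.975 to 0.985 between footprint libraries, 0.963 to 0.978 between mRNA libraries, and 0.805 to 0.862 between a footprint and an mRNA library; genes are not independent replicates. Markers of growing or mating cells were low but not absent. The 10 listed genes of G1 cyclins and cell separation made up 0.00229 to 0.00290% of all RPKM in footprints and 0.00656 to 0.00840% in mRNA. The 15 listed mating-type and haploid genes made up 0.113 to 0.123% in footprints and 0.130 to 0.150% in mRNA. In such bulk samples, fewer cells of a type and less RNA per cell cannot be told apart.

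Footprints and mRNA differed for most genes at 6 h. Levels were compared as log2(RPKM + 1), each library set to a median of 0 over the tested genes, so that a positive difference is more footprints than the typical gene has for its mRNA. Of 5631 genes, 1876 (33.3%) were higher in footprints and 1571 (27.9%) were lower with limma at a Benjamini-Hochberg adjusted p under 0.05, and 2184 did not pass. A difference of at least 1 on the log2 scale together with that p was reached by 778 genes (13.8%) above and 905 (16.1%) below. The 5th and 95th percentiles were -2.66 and 1.53, the quartiles -0.58 and 0.65, and the median 0.06. The filter used mRNA alone, so genes with footprints and little mRNA were not tested while genes with mRNA and few footprints were; with the filter on the mean over both assays instead, 796 genes lay at 1 or more and 792 at -1 or less. The 3 footprint values lay entirely above the 3 mRNA values for 2066 genes and entirely below them for 1720. Without setting the medians to 0, the median gene stood at -0.41, and 930 genes were called higher and 2682 lower, so all differences are relative to the typical gene.

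**Figure D1:**
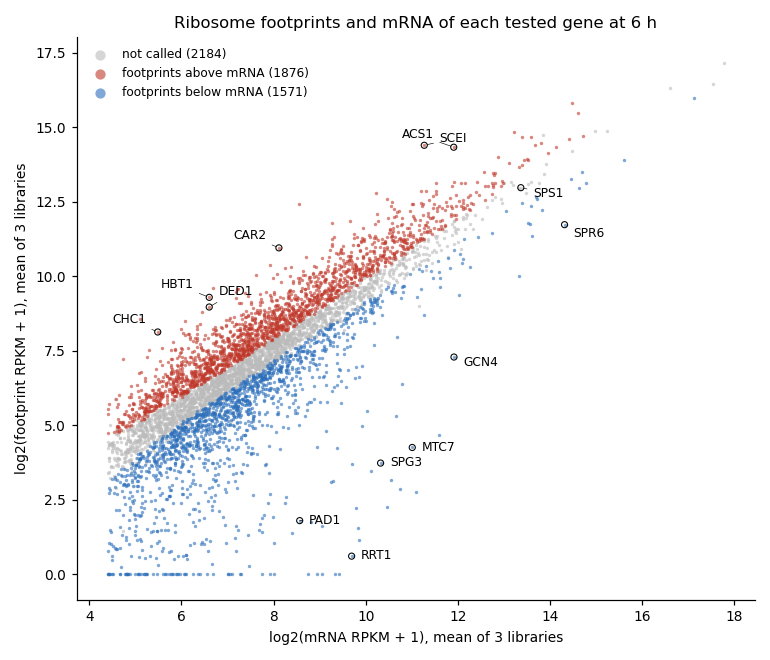
Each point is 1 of the 5631 tested genes, with its mean log2(mRNA RPKM + 1) over 3 libraries on the x axis and its mean log2(footprint RPKM + 1) over 3 libraries on the y axis, coloured by the limma call. The 1571 genes called lower lie below the diagonal band and the 1876 called higher above it; the left edge is the filter on mRNA.

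The gene with a standard symbol that lay farthest above was SCEI, which encodes the homing endonuclease in the intron of the mitochondrial large ribosomal RNA gene; it overlaps that gene in the reference, so its reads cannot be assigned to it alone. Its values were 22955, 19652 and 21750.4 RPKM in the footprint libraries, against 2252, 3539 and 1609 RPKM in the mRNA libraries, and the difference was 3.66 ± 0.24 (SE; adjusted p = 3.67e-06 with limma). The 12 genes farthest above ranged in their differences down to 2.86, and the rule that chose them required every footprint value to lie above every mRNA value on the centred scale.

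Metabolic and vacuolar enzymes stood among them. CAR2, the ornithine aminotransferase of arginine breakdown, had 1949, 2133 and 1837 RPKM in the footprint libraries, against 241, 370.5 and 217 RPKM in the mRNA libraries. The footprint values are several times the mRNA values in each set, and the difference was 3.33 ± 0.19 (adjusted p = 1.74e-06, limma). PRB1, the vacuolar proteinase B required for normal sporulation, had 7171, 7473 and 6344 RPKM in the footprint libraries, against 828, 1659.8 and 1107 RPKM in the mRNA libraries. The groups do not overlap, as the rule required, and PRB1 differed by 3.06 ± 0.22 (adjusted p = 5.08e-06, limma). ACS1, an acetyl-CoA synthetase used in growth on acetate, had 18491, 22975 and 20082 RPKM in the footprint libraries, against 3585, 4848 and 3101 RPKM in the mRNA libraries, a difference of 2.90 ± 0.18 (adjusted p = 2.53e-06, limma). Acetate is the carbon source of standard sporulation medium.

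The rest of the 12 had varied roles. CHC1, the clathrin heavy chain, had 268, 295 and 271 RPKM in the footprint libraries, against 34.5, 53.2 and 43.6 RPKM in the mRNA libraries, a difference of 3.12 ± 0.17. DOC1, a subunit of the anaphase promoting complex that recognises substrates, had 978, 1137 and 1006 RPKM in the footprint libraries, against 176, 230.3 and 183 RPKM in the mRNA libraries, a difference of 2.87 ± 0.14. Both are far above their mRNA in each library, at adjusted p of 1.73e-06 for CHC1 and 1.06e-06 for DOC1 (limma). Against the single 6 h library of total RNA, CHC1 stood at 0.44 in footprints and -2.67 in mRNA, and DOC1 at 1.76 and -1.09. The paralogous DEAD-box helicases DED1 and DBP1, of which DED1 acts in the scanning of the start codon, were also present: DED1 had 505, 544 and 445 RPKM in the footprint libraries, against 82.9, 132 and 73.2 RPKM in the mRNA libraries, and DBP1 had 746, 758 and 758 RPKM in the footprint libraries, against 145, 187 and 107 RPKM in the mRNA libraries. Their differences were 2.87 ± 0.20 and 2.86 ± 0.18. DBP1 is among 443 rows of the parallel table that stand in another order than their names, and its difference was -3.11 when the parallel values were taken by name instead of by position. HBT1, involved in polarised growth, differed by 3.14, the Cdc42 effector GIC1 by 2.96, PSP2 by 2.94, and RTG1, a transcription factor of mitochondria-to-nucleus signalling, by 2.93. With no symbol required, the open reading frames YCL041C (4.29) and YEL045C (3.85) were higher still; they were picked after their values were seen.

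The 12 lowest genes were tested because their mRNA passed the filter, and 33 genes with footprints of at least 20 RPKM but less mRNA were not tested. RRT1 had 1.56, 0 and 0 RPKM in the footprint libraries, against 519, 907 and 1053 RPKM in the mRNA libraries, a difference of -8.71 ± 0.39 (adjusted p = 5.49e-07, limma). DGR1 had 9.05, 14.5 and 0 RPKM in the footprint libraries, against 979, 1779 and 1760.4 RPKM in the mRNA libraries, a difference of -7.61 ± 0.80; with the parallel values taken by name it was -2.27 and not called (adjusted p = 0.194, limma). In both genes all footprint values are at or near 0 while the mRNA is plentiful. RPL41B, which encodes the smallest ribosomal protein, was listed at 0 in all footprint libraries, against 15.4, 728 and 724 RPKM in the mRNA libraries; after the 60 bases that the deposited lengths leave out, only 18 bases of it remain, and it has a near-identical copy, RPL41A, so its value is uncertain. The course mRNA library is far below the parallel ones for it. AUA1 (-6.75) overlaps another gene in the reference.

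Low footprints also occurred in genes of known enzymes with mRNA well above the limit of 20 RPKM. PAD1, a phenylacrylic acid decarboxylase, had 2.35, 1.89 and 3.18 RPKM in the footprint libraries, against 290.2, 465 and 379 RPKM in the mRNA libraries, a difference of -6.30 ± 0.24 (adjusted p = 2.32e-07, limma). PLB3, a phospholipase B, had 1.39, 0.954 and 2.14 RPKM in the footprint libraries, against 143, 204 and 171 RPKM in the mRNA libraries, a difference of -5.67 ± 0.27 (adjusted p = 7.49e-07, limma). IMA1, an isomaltase, had 2.07, 0.370 and 2.49 RPKM in the footprint libraries, against 220.3, 233 and 188 RPKM in the mRNA libraries, a difference of -5.99 ± 0.35 (adjusted p = 2.15e-06, limma). In the 3 enzymes every footprint library is below every mRNA library, as the rule that chose them required. The other genes among the 12 lowest were MTC7 (-6.43), SPG3 (-6.12), LCL1 (-5.75, listed at 0 in all footprint libraries), EMA17 (-5.55) and DFP2 (-5.37).

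**Figure D2:**
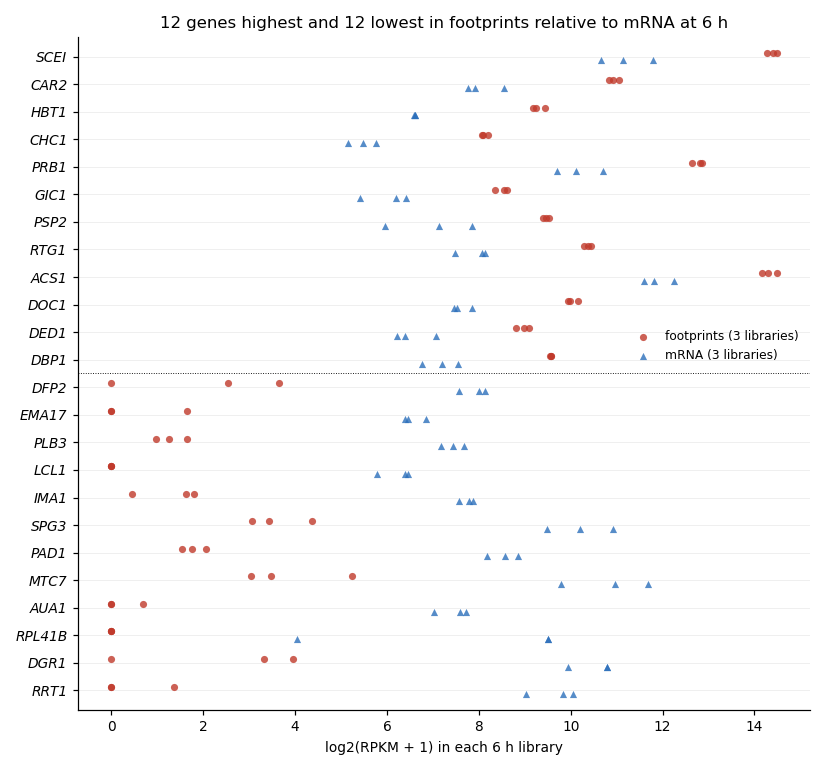
Each row is a gene of the 12 highest (above the dotted line) or 12 lowest differences, with its log2(RPKM + 1) in each of the 3 footprint libraries (circles) and each of the 3 mRNA libraries (triangles). In the upper genes the circles lie to the right of the triangles and in the lower genes to their left, as the rule that chose them required.

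The low tail held many open reading frames of uncertain standing. Of 148 genes at -4 or less, 63 have no entry in the reference annotation and 15 overlap another gene. Among all 5631 tested genes, 138 overlap another gene. These 138 had a median of -0.13, and 34.1% of them were called lower, beside 27.9% of all genes. The 163 tested genes without a reference entry had a median of -3.22, with 115 called lower and 19 higher, against a median of 0.07 for the 5468 with one. The 13 tested genes of the mitochondrial genome, whose mRNAs are read by mitochondrial ribosomes, had a median of -3.75, and 11 were called lower. Footprints were 0 in all 3 libraries for 63 tested genes, 31 of them without a reference entry, while their mean mRNA level had a median of 49.2 RPKM and reached 686 RPKM; these were tested only because their mRNA passed the filter. At the upper end, 92 genes were at 2 or more. Beside the limit for testing, 119 genes had a mean mRNA level of 15 to 20 RPKM and were left out, and 118 had 20 to 25 RPKM and were kept.

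Genes of carbon metabolism mostly had more footprints for their mRNA than the typical gene. Of 19 glycolytic genes, 18 were higher in footprints, 0 were lower, and their median was 1.65, against 0.06 and 33.3% called higher over all genes. PDC1, pyruvate decarboxylase, had 3519.9, 3939.6 and 3577 RPKM in the footprint libraries, against 1083, 552 and 769 RPKM in the mRNA libraries, a difference of 2.71 ± 0.22 (adjusted p = 8.25e-06, limma). PFK2, a subunit of phosphofructokinase, differed by 2.55 ± 0.16 and ENO1, enolase, by 2.46 ± 0.26. Glycolytic genes made up 1.30 to 1.40% of all footprint RPKM and 0.439 to 0.725% of all mRNA RPKM. The 16 genes of gluconeogenesis, the glyoxylate cycle and acetate use had 11 higher and 0 lower (median 1.03), among them MLS1, the malate synthase of the glyoxylate cycle (1.82 ± 0.14), and YAT1, a carnitine acetyltransferase (2.14 ± 0.18). The tricarboxylic acid cycle had 15 of 16 higher and 0 lower (median 1.14): KGD1, a component of alpha-ketoglutarate dehydrogenase, had 2269, 2522 and 2481 RPKM in the footprint libraries, against 686, 685 and 469.9 RPKM in the mRNA libraries, and ACO1, aconitase, differed by 1.70 ± 0.15. Nuclear genes of the respiratory chain and ATP synthase had 25 of 31 higher and 0 lower (median 0.64), with COX5A, a subunit of cytochrome c oxidase, at 1.68 ± 0.14 and RIP1, the Rieske protein of complex III, at 1.54 ± 0.14. The median of each of these 4 lists was also above 0 without centring (1.19, 0.57, 0.67 and 0.18 in the order given) and with quantile normalisation (1.25, 0.74, 0.62 and 0.14). The counts fell for some of them: respiratory genes had 10 higher and 3 lower without centring and 11 higher and 3 lower with quantile normalisation, and gluconeogenesis genes 10 higher with 4 and 3 lower.

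The machinery of translation split by kind, beside 33.3% of all genes called higher and 27.9% lower. Initiation and elongation factors were high: of 37 tested, 27 were higher in footprints, 0 were lower and 10 did not pass, with a median of 0.90 (18 higher and 1 lower without centring). TIF4631, the scaffold eIF4G, had 283, 230.0 and 194 RPKM in the footprint libraries, against 65.5, 95.3 and 53.7 RPKM in the mRNA libraries, a difference of 2.19 ± 0.21 (adjusted p = 2.21e-05, limma), its paralog TIF4632 differed by 2.14 ± 0.19, and GCD11, the gamma subunit of eIF2, by 2.13 ± 0.16. The tRNA synthetases of the cytosol, which charge tRNAs with amino acids, had 15 of 18 higher and 0 lower (median 1.18), with DPS1 for aspartate at 1.93 ± 0.17 and ALA1 for alanine at 1.90 ± 0.15. Cytosolic ribosomal proteins did not share this: of 138 tested, 12 were higher in footprints, 42 were lower and 84 did not pass, with a median of -0.23, so that the share called lower was near the 27.9% of all genes. Without centring 100 were lower (median -0.70), and with quantile normalisation 91 (median -0.65). Beside RPL41B, the lowest were RPL41A (-4.52 ± 1.65), whose call was lost without any library but the mRNA library of the course (between -4.54 and -3.00, adjusted p from 0.0584 to 0.166, limma) and with quantile normalisation (-2.64, adjusted p = 0.204), and RPL35A (-4.07 ± 1.13), whose call was lost by name (-4.06, adjusted p = 0.0538); both have near-identical copies between which reads may be split. Mitochondrial ribosomal proteins had 12 of 72 higher and 7 lower (median -0.02; 3 higher and 39 lower without centring, 8 and 14 with quantile normalisation), MRPL44 being at -1.22 ± 0.48, a call lost without any library but the course footprint library (-1.43 to -0.58, adjusted p from 0.0569 to 0.142) and with quantile normalisation (-0.78, adjusted p = 0.149, limma). Ribosome biogenesis factors had 18 of 65 higher and 10 lower (median 0.04). The share of them called higher, 27.7%, was near that of all genes. They had 4 higher and 27 lower without centring (median -0.42) and 28 higher and 8 lower with quantile normalisation (median 0.43). NOP1, the methyltransferase fibrillarin, differed by 1.44 ± 0.17, and UTP6, of the small-subunit processome, by -1.54 ± 0.18.

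Chaperones lay mostly above the median, proteasome subunits did so on the centred scale, and other genes of protein transport and turnover were mixed. Of the 30 chaperone and stress genes tested, 23 were higher and 3 lower (median 1.24). HSP60, the mitochondrial chaperonin, had 2474, 2469 and 2617 RPKM in the footprint libraries, against 508, 876 and 520.4 RPKM in the mRNA libraries, a difference of 2.50 ± 0.20 (adjusted p = 7.59e-06, limma). SSA3, a stress-induced Hsp70, differed by 2.09 ± 0.14. Proteasome subunits were higher in 24 of 33 and lower in 1 (median 0.62), but 10 were higher and 4 lower both without centring (median 0.16) and with quantile normalisation (median 0.21). The highest were RPN2 (1.60 ± 0.18) and RPN1 (1.50 ± 0.19), the large scaffold subunits of the regulatory particle. Autophagy genes were mixed, 12 of 28 higher and 4 lower (median 0.20; 8 higher, 11 lower and -0.26 without centring): ATG2, a lipid transfer protein of the growing autophagosome, was at 1.71 ± 0.22, while ATG5, part of the complex that attaches Atg8 to lipid, had 26.3, 32.2 and 28.3 RPKM in the footprint libraries, against 306, 267 and 379 RPKM in the mRNA libraries, a difference of -2.94 ± 0.18. Vacuolar proteases had 3 of 7 higher and 2 lower (median 0.07, -0.39 without centring, -0.13 with quantile normalisation), with DAP2, a vacuolar dipeptidyl aminopeptidase, at -1.92 ± 0.19. The vacuolar ATPase had 6 of 15 higher and 1 lower (median 0.31, -0.16 without centring, -0.14 with quantile normalisation). Genes of translocation into the endoplasmic reticulum and of glycosylation had 9 of 26 higher and 5 lower (median 0.21, -0.25 without centring, -0.11 with quantile normalisation): SEC61, the channel, was at 1.28 ± 0.19, and SRP21, of the signal recognition particle, at -2.87 ± 0.22. Over all genes 33.3% were called higher and 27.9% lower, so the counts of autophagy, protease, vacuolar ATPase and translocation genes are near the background or rest on few members.

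Meiotic genes spanned both directions. Of early and recombination genes, 21 of 36 were higher and 3 lower (median 0.62), but 8 higher and 9 lower without centring (median 0.15) and 12 higher and 6 lower with quantile normalisation (median 0.25). MER1, a splicing activator of meiotic transcripts, had 126, 178 and 158 RPKM in the footprint libraries, against 33.4, 42.7 and 34.6 RPKM in the mRNA libraries, and RIM4, the RNA-binding protein itself, had 4689.8, 5858 and 4971 RPKM in the footprint libraries, against 1407, 2017 and 1059.6 RPKM in the mRNA libraries. In both, all footprint values exceed all mRNA values, with differences of 2.49 ± 0.18 and 2.30 ± 0.21 (adjusted p = 4.87e-06 and 1.43e-05, limma). Middle genes had 17 of 39 higher and 7 lower (median 0.28, -0.18 without centring, -0.22 with quantile normalisation), and spore wall and late genes 6 of 20 higher and 3 lower (median 0.16, -0.31 without centring, -0.32 with quantile normalisation), a share of the spore wall genes near the 33.3% of all genes called higher. With quantile normalisation, which gives all libraries one distribution of levels, 4 higher and 16 lower were called among the middle genes, and without centring 8 higher and 15 lower. The spore wall list had 1 higher and 8 lower under either scaling. The middle genes were abundant at this time: they made up 6.25 to 6.97% of all footprint RPKM, against 8.77 to 10.0% of all mRNA RPKM. The lowest middle gene called was SPR6, with 3816, 2953 and 3387 RPKM in the footprint libraries, against 17511, 20509.5 and 23079 RPKM in the mRNA libraries, a difference of -2.12 ± 0.17; ADY3, needed for prospore membrane assembly, was at 1.26 ± 0.20. In the spore wall list, DIT1, an enzyme of dityrosine synthesis, was at 1.69 ± 0.15 and SPO75 at -1.47 ± 0.16. Whether the early and middle lists differ from each other was not tested.

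Among genes of chromosome segregation, the anaphase promoting complex had 9 of 16 higher and 2 lower (median 0.53, -0.02 with quantile normalisation; 5 higher and 4 lower under that and without centring), with MND2 at 1.87 ± 0.14 and CDC16 at 1.75 ± 0.17. Kinetochore genes had 10 of 27 higher and 4 lower (median 0.15; 4 higher, 11 lower and -0.32 without centring). SPC25, a partner of Ndc80 in the outer kinetochore complex, was at 1.28 ± 0.13, while NDC80 itself was lower. Histone genes had 3 of 10 higher and 1 lower (median 0.13, -0.33 without centring, -0.50 with quantile normalisation), HHO1 for the linker histone being at 1.64 ± 0.14 and HTA2 at -0.58 ± 0.15. The kinetochore and histone shares called higher are near the 33.3% of all genes, so neither count is a result about these members. Several histone genes have near-identical copies, between which reads may be split.

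The list of G1 cyclins and separation and the list of mating-type and haploid genes had medians below 0, unlike vegetative cell wall genes. Of the 6 G1 cyclin and separation genes that passed the filter (of 10 listed), 0 were higher and 4 were lower, beside 27.9% of all genes (median -1.09, but -0.04 with 1 lower under quantile normalisation), among them CLN2, a G1 cyclin (-1.20 ± 0.26, but -0.26 with an adjusted p of 0.524 under quantile normalisation with limma), and CTS1, the endochitinase of cell separation, with 0, 1.19 and 2.66 RPKM in the footprint libraries, against 31.6, 29.0 and 39.0 RPKM in the mRNA libraries. Of the 12 mating-type and haploid genes tested (of 15), 6 were lower and 2 higher (median -0.68). STE2, the alpha-factor receptor, had 6.37, 4.60 and 5.16 RPKM in the footprint libraries, against 63.4, 53.0 and 76.3 RPKM in the mRNA libraries, a difference of -2.88 ± 0.25 (adjusted p = 1.18e-05, limma). MFA1, a gene for a-factor, was at -2.47 ± 0.38; the higher members, named after their values were seen, were MFA2, another a-factor gene (2.00), and FUS3, a protein kinase of the mating response (0.81). The call on AGA2, an a-agglutinin subunit (-2.69 ± 0.83), was lost without the mRNA library of parallel replicate 2 (-2.61, adjusted p = 0.069, limma) and by name (-2.69, adjusted p = 0.0694). Vegetative cell wall genes had 7 of 15 higher and 1 lower (median 0.07; 6 higher, 7 lower and -0.39 without centring), including HSP150 at 2.31 ± 0.17 and TIR1, a mannoprotein, at -2.18 ± 0.41.

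**Figure D3:**
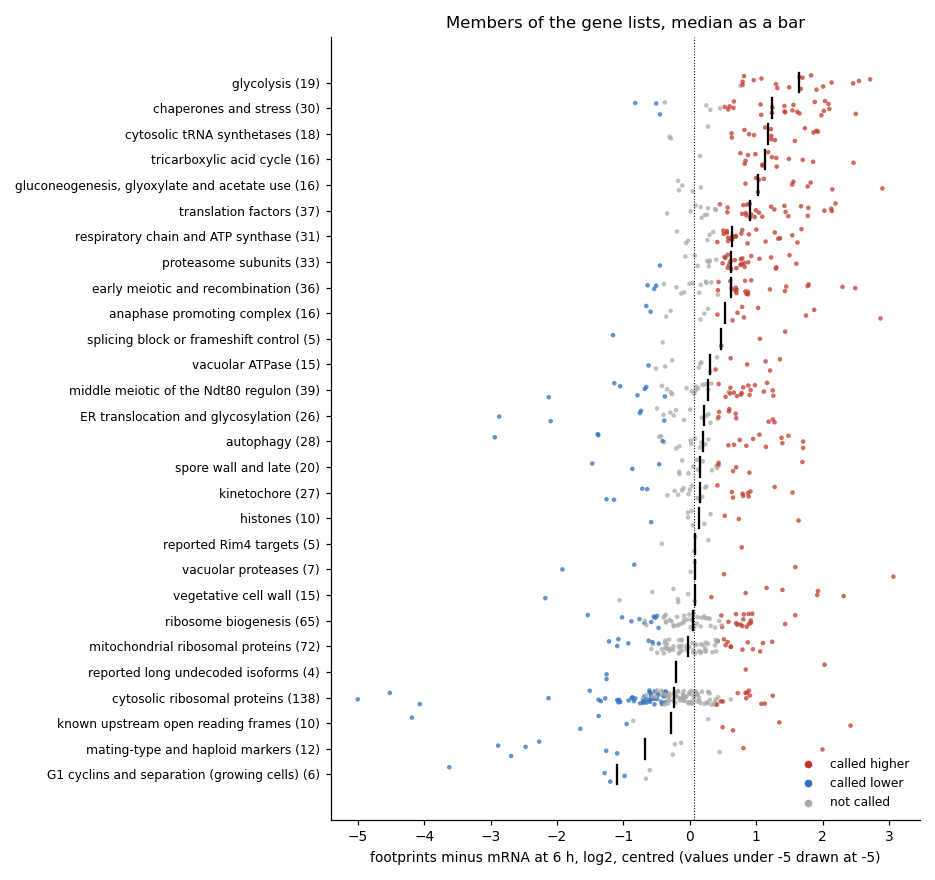
Each row is a gene list with the number of members tested, each point a member's footprints minus mRNA at 6 h (log2, centred), coloured by the limma call, and each bar the list's median; the dotted line is the all-gene median of 0.06. The medians of glycolytic genes, tRNA synthetases, translation factors and tricarboxylic acid cycle genes lie right of the line, and those of the growing-cell and mating lists left of it. Some tRNA synthetases, translation factors and mating genes lie on the other side of the line from their median.

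Genes with a known translational control were examined one by one, since these members may have been reported from such samples and are not independent evidence of a direction. The reported Rim4 targets were mostly at the median at 6 h. CLB3, a B-type cyclin of meiosis II, had 1382, 1174 and 1174 RPKM in the footprint libraries, against 1582, 1743 and 1524 RPKM in the mRNA libraries; the values are of like size and the difference was 0.08 ± 0.14 (adjusted p = 0.614, limma), which did not pass. SPS1, a protein kinase of spore formation, had 7959.9, 7419 and 8632 RPKM in the footprint libraries, against 10742, 9792 and 11110.2 RPKM in the mRNA libraries, a difference of 0.06 ± 0.15 that did not pass either. The differences of both turned below 0 without centring and with quantile normalisation. Of the other targets, GIP1, a meiotic subunit of protein phosphatase Glc7, was higher by 0.78 ± 0.14 (adjusted p = 0.0011), a call that was lost without centring (0.32, adjusted p = 0.0709) and with quantile normalisation (0.13, adjusted p = 0.488, limma). SPO20 (-0.42) and SSP1 (0.28) did not pass, but SPO20 was called lower without centring (-0.89) and with quantile normalisation (-1.08). Over the 5 targets the median was 0.08, with 1 higher and 0 lower, beside 33.3% and 27.9% of all genes. That median was -0.38 without centring and -0.34 with quantile normalisation.

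Of 4 genes with a reported long undecoded isoform, 2 were lower and 2 higher, beside 27.9% and 33.3% of all genes. NDC80, of the outer kinetochore, had 228, 199.8 and 172 RPKM in the footprint libraries, against 763, 742 and 498 RPKM in the mRNA libraries, a difference of -1.25 ± 0.18 (adjusted p = 0.000254, limma), and SWI4, a G1 transcription factor, had 35.0, 30.2 and 26.4 RPKM in the footprint libraries, against 122, 103 and 84.5 RPKM in the mRNA libraries, a difference of -1.25 ± 0.19 (adjusted p = 0.000302, limma). In each, footprints are below mRNA in every library on the centred scale. HNT1 was higher by 0.84 ± 0.14 (0.22 with an adjusted p of 0.151 under quantile normalisation, limma), and POR1, the mitochondrial outer membrane porin, by 2.03 ± 0.14. RPKM summed over a gene does not separate its isoforms.

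Genes with known upstream open reading frames lay in both directions, 4 of 10 higher and 4 lower (median -0.29, 0.09 with quantile normalisation). Over all genes 33.3% were called higher and 27.9% lower, so these counts rest on few members near the background. GCN4, the activator of amino acid synthesis whose upstream frames are the textbook case, had 189.9, 121 and 154 RPKM in the footprint libraries, against 4092, 4092 and 3389.9 RPKM in the mRNA libraries, a difference of -4.18 ± 0.18 (adjusted p = 5.12e-07, limma). Its footprints are far below its mRNA in all libraries; by name the difference was -4.39 with an adjusted p of 0.166 (limma). HAP4, an activator of respiratory genes, was at -1.65 ± 0.17, PPR1, an activator of pyrimidine synthesis, at -1.37 ± 0.24 (-0.22 with an adjusted p of 0.527 under quantile normalisation, limma), and CPA1, a carbamoyl phosphate synthase subunit with an arginine-sensing upstream peptide, at -0.95 ± 0.16. On the other side, the protein kinase SCH9 was at 2.42 ± 0.22 and LEU4, of leucine synthesis, at 1.35 ± 0.14. SCO1, a copper chaperone for cytochrome c oxidase, was at 0.49 ± 0.14, a call lost without centring (0.03, adjusted p = 0.863), with quantile normalisation (0.13, adjusted p = 0.412) and in the parallel table alone (0.39, adjusted p = 0.0661, limma). CAD1, a transcription factor related to YAP1, was at 0.65 ± 0.23, a call lost without centring (0.19, adjusted p = 0.52), with quantile normalisation (0.61, adjusted p = 0.0564), by name (0.65, adjusted p = 0.0811), without the course footprint library (0.42, adjusted p = 0.123) or the mRNA library of parallel replicate 2 (0.45, adjusted p = 0.138, limma). YAP1 (0.28) and DCD1 (-0.85) did not pass; DCD1 was called without centring (-1.32).

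Genes controlled through splicing or frameshifting were likewise mixed, 3 of 5 higher and 1 lower (median 0.47, -0.15 with quantile normalisation). Beside the 33.3% higher and 27.9% lower of all genes, these counts rest on few members. HAC1, the activator of the unfolded protein response, whose unspliced mRNA is not translated in growing cells, had 5014, 3404 and 3899.6 RPKM in the footprint libraries, against 1745, 2469 and 2049 RPKM in the mRNA libraries, a difference of 1.44 ± 0.19 (adjusted p = 0.00013, limma). ABP140, which is made by a programmed frameshift, was higher by 1.06 ± 0.20. EST3, a telomerase subunit made by a frameshift, was lower by a difference of -1.16 ± 0.19. OAZ1, the frameshifted antizyme of polyamine control, was at -0.41 and did not pass (-0.87 and called without centring). YRA1, an RNA export factor that controls its own splicing, was higher by 0.47 ± 0.15 (0.01 without centring, -0.16 with quantile normalisation, neither called), a call that was also lost without the course footprint library (0.34, adjusted p = 0.0843) or the mRNA library of parallel replicate 2 (0.46, adjusted p = 0.0517, limma).

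Longer genes and more abundant mRNAs had higher differences, by small amounts against the spread of genes. In 5 classes of gene length, with medians from 363 to 2636 bases, the median difference was -0.08, 0.01, 0.11, 0.09 and 0.29. In 5 classes of mRNA level it was, low to high, -0.14, -0.09, 0.00, 0.13 and 0.34. Genes called at 1 or more had a median length of 1473 bases and a median mRNA level of 201 RPKM, those called at -1 or less 1071 bases and 106 RPKM, and all tested genes 1137 bases and 155 RPKM. The mRNA level enters both axes of the second comparison.

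A single library of total RNA from 6 h gave another denominator, with no replicate and after rescaling by recovered gene lengths. Across 5280 genes the differences from mRNA and from total RNA correlated at r = 0.78, a description only, since both hold the same footprint libraries. For ribosomal proteins the median of footprints minus total RNA was 0.76 and of mRNA minus total RNA 1.07. For glycolysis they were 1.14 and -0.50, and for middle genes 0.48 and 0.43. Of 725 genes called at 1 or more with a total RNA value, 627 had footprints above total RNA and 98 below (median 0.96). Among the 12 highest, SCEI stood at -0.13 in footprints and -3.77 in mRNA, CHC1 at 0.44 and -2.67, and DED1 at 0.47 and -2.37. CAR2, GIC1, PSP2, RTG1, ACS1, DOC1 and DBP1 stood at 1.47 to 1.80 in footprints, and HBT1 and PRB1 had no value. Differences from total RNA moved with gene length: the median was -0.63 in the longest class and 0.72 in the shortest for footprints, and -0.89 and 0.79 for mRNA. With log2 gene length, footprints minus mRNA correlated at Pearson's r of 0.19, footprints minus total RNA at -0.25, and mRNA minus total RNA at -0.65. The part of length or of library preparation in the gene and list values was not tested.

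The 6 h values were set against the same measure at 3 h. In a fit of 17 libraries, in which the 2 identical 3 h parallel mRNA columns counted as 1 library, translation efficiency was higher at 6 h than at 3 h for 247 of 5521 genes (4.47%) and lower for 129 (2.34%), by the interaction of assay and time (limma, Benjamini-Hochberg adjusted p under 0.05). Without centring the median gene stood at 0.33 and the counts were 780 and 59; with quantile normalisation they were 169 and 198. Among the 247 higher genes the median change was 1.69 in footprints and 0.10 in mRNA, against -0.20 in both over all tested genes. Both assays were higher in 133 of them, footprints alone in 96 and neither in 18. The mRNA change was under 0.5 in size for 68 (27.5%), against 45.4% of all tested genes. The 129 lower genes had medians of -0.75 in footprints and 0.42 in mRNA. In 64 of these mRNA alone was higher, in 27 both assays and in 38 neither. The counts depended on single libraries: without the footprint library of 6 h parallel replicate 2 they were 162 and 91, without the mRNA library of 6 h parallel replicate 2 156 and 78, without the 6 h mRNA library of the course 176 and 84, and without either remaining 3 h mRNA library 118 or 119 and 52 or 62.

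ISC10, needed for spore formation, had the largest rise against 3 h among called genes with a symbol. It had 3735, 3566 and 3512 RPKM of footprints and 3102, 2324 and 2315 RPKM of mRNA at 6 h, against 3.60, 0 and 4.26 RPKM of footprints and 147 and 137 RPKM of mRNA at 3 h. Its mRNA was already present at 3 h, when footprints were few, and its translation efficiency was higher by 5.77 ± 0.69 at 6 h (adjusted p = 9.63e-05, limma). With the parallel values taken by name the change was 1.79 and not called (adjusted p = 0.763, limma). GIP1 had 3726, 3419 and 3817 RPKM of footprints and 3052, 3231 and 2549 RPKM of mRNA at 6 h, against 4.51, 4.88 and 5.73 RPKM of footprints and 108 and 95.3 RPKM of mRNA at 3 h, a change of 4.06 ± 0.40 (adjusted p = 1.64e-05, limma). In both genes footprints and mRNA were higher at 6 h, footprints by far more. TPH3 had 130.1, 121 and 132 RPKM of footprints and 244, 260.0 and 239 RPKM of mRNA at 6 h, against 1.43, 0.623 and 0.976 RPKM of footprints and 224 and 232 RPKM of mRNA at 3 h. Its mRNA values at both times are close together while its footprints stand far apart, and the change was 5.55 ± 0.32 (adjusted p = 5.23e-08, limma). Translation efficiency was also higher for CNM1, of contacts between nucleus and mitochondria, by 4.19 ± 0.60, for TPO4, a polyamine transporter, by 3.97 ± 0.42, and for BSC4 by 3.99 ± 0.95, a call that was lost without either 3 h mRNA library (4.09 and 3.89, adjusted p = 0.0697 and 0.0789) or the 6 h mRNA library of parallel replicate 2 (3.82, adjusted p = 0.053, limma).

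Of the reported Rim4 targets, 4 of 5 had a higher translation efficiency at 6 h, beside 4.47% of all genes, and with quantile normalisation 2 of 5 (median 0.07); these targets may have been reported from these samples. CLB3 had 1382, 1174 and 1174 RPKM of footprints and 1582, 1743 and 1524 RPKM of mRNA at 6 h, against 23.0, 19.0 and 27.2 RPKM of footprints and 253 and 227 RPKM of mRNA at 3 h. Its footprints are close to its mRNA at 6 h and far below it at 3 h, and the change was 2.60 ± 0.27 (adjusted p = 2.45e-05, limma). SPO20 changed by 2.26 ± 0.25, but by 0.07 with an adjusted p of 0.943 under quantile normalisation (limma), and SPS1 by 1.39 ± 0.27, a value that turned to -0.59 under that scaling, while SSP1 (-0.12 ± 0.27) did not pass. NDC80 was higher by 1.95 ± 0.30 at 6 h although it was still below the median there, and SWI4 by 1.03 ± 0.28, a call that was lost without any of 12 of the 17 libraries (0.91 to 1.16 over all of them, adjusted p up to 0.144, limma). HAC1 changed by 3.02 ± 0.42: it had 5014, 3404 and 3899.6 RPKM of footprints and 1745, 2469 and 2049 RPKM of mRNA at 6 h, against 192, 148 and 158 RPKM of footprints and 1028 and 746 RPKM of mRNA at 3 h.

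**Figure D4:**
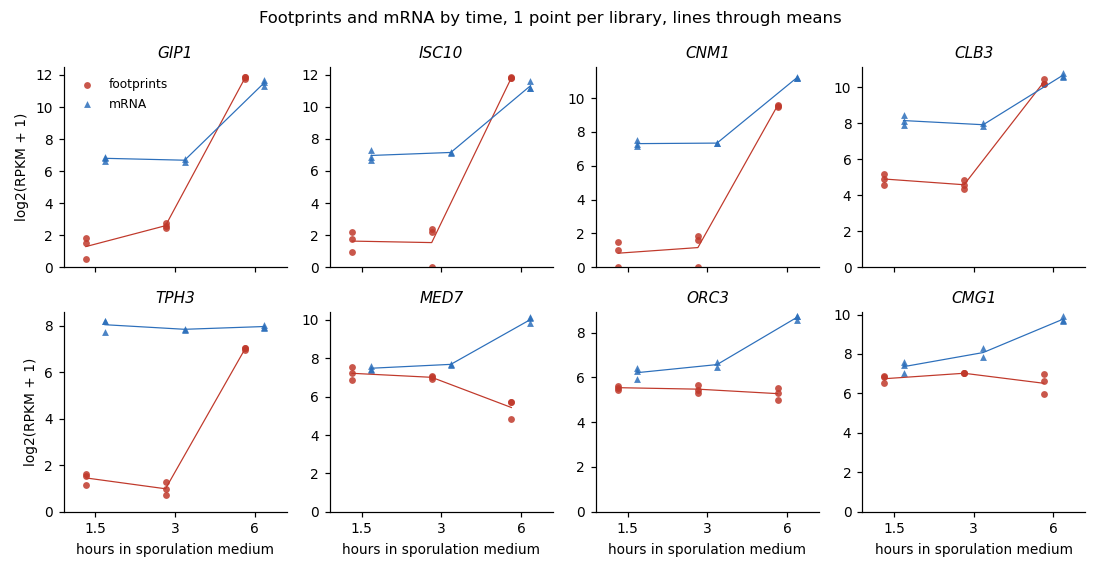
Panels show log2(RPKM + 1) of single genes at 1.5, 3 and 6 h in sporulation medium, with 1 point per footprint or mRNA library and lines through the means. For CLB3 and ISC10 the footprint points lie far below the mRNA points at 1.5 and 3 h and approach or pass them at 6 h.

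Falls against 3 h were led by MED7, a subunit of the Mediator complex of transcription, with 51.7, 51.9 and 27.9 RPKM of footprints and 1130.4, 1087 and 909 RPKM of mRNA at 6 h, against 135, 119.8 and 129 RPKM of footprints and 202 and 206 RPKM of mRNA at 3 h. Footprints were lower and mRNA higher at 6 h, and the change was -4.26 ± 0.29 (adjusted p = 2.91e-07, limma). ORC3, of the origin recognition complex, changed by -2.65 ± 0.22, CMG1 by -2.54 ± 0.29, and HAP4 by -2.04 ± 0.28. The other genes among the 6 lowest were SRL1 (-2.90 ± 0.55), TOS6 (-2.78 ± 0.60, lost with quantile normalisation at -3.09 and an adjusted p of 0.101 and without the 3 h mRNA library of parallel replicate 2 at -2.44 and an adjusted p of 0.0752 with limma) and PRY2, a secreted sterol-binding protein (-2.47 ± 0.43). Among the lists, 7 of 29 middle genes that passed the filter at each time were higher at 6 h, beside 4.47% of all genes, and 0 lower (16 and 0 without centring, 2 and 2 with quantile normalisation). Of 10 histone genes, 6 were lower, beside 2.34% of all genes, and 0 higher (2 lower without centring, 0 with quantile normalisation).

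Against 1.5 h the differences were more numerous. Translation efficiency was higher at 6 h for 608 genes (11%) and lower for 455 (8.24%) of 5521, and 952 and 260 without centring, with the median gene at 0.16. Without the mRNA library of 6 h parallel replicate 2 the counts were 386 and 260, and without the mRNA library of 1.5 h parallel replicate 2 or of the 1.5 h course 399 and 276 or 385 and 284. The comparisons with 3 h and 1.5 h share the 6 h libraries, so their values are given side by side only. ISC10 (5.68 ± 0.65, but 1.55 with an adjusted p of 0.713 by name, limma), GIP1 (5.67 ± 0.37), TPH3 (5.47 ± 0.30) and TPO4 (4.97 ± 0.40) were again among the 6 farthest above, joined by LIH1 (4.89 ± 0.37) and LPX2 (4.82 ± 0.37). MED7 was again farthest below (-4.48 ± 0.27), followed by MIN4 (-4.38 ± 1.39, lost without any of 8 libraries at adjusted p up to 0.0945 with limma) and EFG1, of ribosomal RNA processing (-3.59 ± 0.52). RMD6 (-3.33 ± 0.92, lost without the 1.5 h course mRNA library at -3.12 and an adjusted p of 0.053), TIR2 (-3.12 ± 0.63) and AGA2 (-2.99 ± 1.01, lost without any of 12 libraries at adjusted p up to 0.105) completed the 6.

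By list, beside 11% of all genes higher and 8.24% lower, 19 of 29 middle genes were higher at 6 h than at 1.5 h and 1 lower, a split that turned to 3 higher and 10 lower with quantile normalisation. In the same comparison, 10 of 30 chaperone and stress genes were higher and 0 lower, and 7 of 16 subunits of the anaphase promoting complex were higher and 1 lower (2 higher and 4 lower with quantile normalisation). On the other side, 29 of 138 ribosomal protein genes and 11 of 31 respiratory genes were lower and 0 of either were higher; without centring 17 ribosomal protein genes were lower and the respiratory genes split into 1 higher and 6 lower, and with quantile normalisation into 3 higher and 3 lower. Single controlled genes included HAC1 (3.74 ± 0.39), CLB3 (2.71 ± 0.25), NDC80 (1.39 ± 0.28) and SPO20 (1.47 ± 0.24, but -1.84 under quantile normalisation) above, and HAP4 (-1.52 ± 0.27), GCN4 (-1.31 ± 0.29), EST3 (-1.21 ± 0.26) and CPA1 (-1.08 ± 0.28) below. With quantile normalisation the calls on GCN4 (-0.65, adjusted p = 0.124) and CPA1 (-0.42, adjusted p = 0.199) were lost, as was that on GCN4 by name (-0.74, adjusted p = 0.942, limma). The calls on SPS1 (0.87 ± 0.26, -1.13 under quantile normalisation), SSP1 (-0.78 ± 0.25) and SCO1 (0.83 ± 0.28) were lost without any of 5, 11 and 15 libraries of the 17, at adjusted p up to 0.072, 0.112 and 0.119 (limma).

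The whole time course has 1 library per assay and time, and its list medians have no replicate check. On the centred scale, the median translation efficiency of ribosomal proteins was 1.07, 0.71, 0.32, -0.23, 0.17 and 1.40 at 1.5, 3, 4.5, 6, 8 and 10 h, so the 6 h value was the lowest of these times. That of the Rim4 targets was -2.28, -2.53, -0.94, 0.26, 0.16 and -0.69, after 0.46 in vegetative cells and 0.69 at 0 h, and it was 0.29 in spores. Over the same times glycolytic genes stayed between 1.38 at 6 h and 2.61 at 10 h, but they stood at 1.13 at 0 h. Middle genes had -0.23 at 1.5 h, 0.37 at 6 h and -0.73 at 10 h, after 0.77 in vegetative cells and 0.88 at 0 h. These medians hold every gene that passed the mRNA filter at 6 h, with no filter on its level at the other states. Of the 39 middle genes, 29 passed at each of 1.5, 3 and 6 h. Values near 0 RPKM may therefore enter the medians of states before the divisions, which was not tested.

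**Figure D5:**
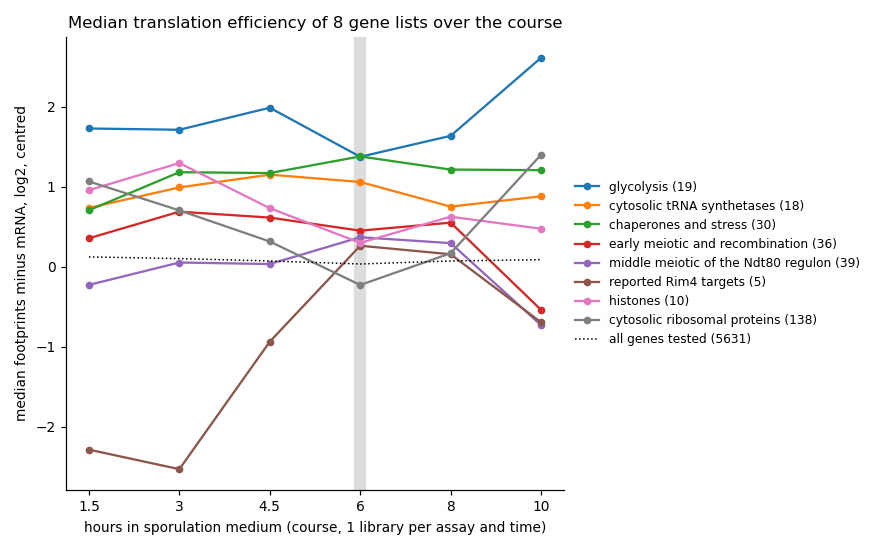
Lines give the median translation efficiency (footprints minus mRNA, log2, centred) of gene lists in the libraries of the time course from 1.5 h on, 1 library per assay and state; the dotted line is the median of all tested genes. Ribosomal proteins reach their lowest value at 6 h, and the reported Rim4 targets climb to the all-gene line between 3 and 6 h. The grey band marks 6 h.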

How the data were processed

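Deposited values of the authors were RPKM per gene and library, per the file headers. The submitters' processing notes name CASAVA, bcl2fastq 2.17 and Bowtie2; the genome build was not given in the sources used here, nor were the counting tool and strand. The deposited 6 h total RNA column held a score that behaved as counts times length and was rescaled. Counts were recovered as RPKM times reference length less 60 bases; values up to 100 counted as whole within 0.02. Values of 443 rows of the parallel table were assigned by position, and 29 columns of sample values were not used. RPKM keeps no separate depth, so low values are less precise than high ones. Values were log2(RPKM + 1), with a pseudocount of 1. Fits used limma 3.58.1 (R 4.3.3), trended prior: 6 libraries with 4 residual degrees of freedom at 6 h, and 17 with 11 across 1.5, 3 and 6 h. Each gene's p was adjusted over all genes (Benjamini-Hochberg) and the fits were tested on simulated data. A lone library of a group is assumed to vary like the others. Names and overlaps came from RefSeq, by which 5994 of 6679 genes matched. Named genes were the 12 largest differences in each direction among called genes with a symbol and no overlap between groups, up to 3 called members of each of 28 lists, all tested members of the 4 lists of translational control, and the 6 largest changes each way in time. Members and lists were chosen with earlier results of these data known. Alternatives covered pseudocount, filter, normalisation, row order, single libraries and a replicate block. Other figures used Python 3.11.15, pandas 2.3.3 and matplotlib 3.10.9.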

Additional observations from a re-analysis of the deposited data

Results flagged for a closer look

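These results were taken up because the same contrast, footprints against mRNA, came out differently at 6 h than at an earlier time by a test of the difference itself (the interaction of assay and time in limma, Benjamini-Hochberg adjusted p under 0.05). Against 3 h, 247 genes were higher at 6 h and 129 lower. Of the genes named there, those higher at 6 h were ISC10 (5.77), TPH3 (5.55), CNM1 (4.19), GIP1 (4.06), BSC4 (3.99), TPO4 (3.97), CLB3 (2.60), SPS1 (1.39), SPO20 (2.26), NDC80 (1.95), SWI4 (1.03) and HAC1 (3.02) (log2 change of translation efficiency, 6 h minus 3 h). Those lower were MED7 (-4.26), SRL1 (-2.90), TOS6 (-2.78), ORC3 (-2.65), CMG1 (-2.54), PRY2 (-2.47) and HAP4 (-2.04). Against 1.5 h, 608 genes were higher and 455 lower. Of the genes named there, those higher at 6 h were ISC10 (5.68), GIP1 (5.67), TPH3 (5.47), TPO4 (4.97), LIH1 (4.89), LPX2 (4.82), CLB3 (2.71), SPS1 (0.87), SPO20 (1.47), NDC80 (1.39), SCO1 (0.83) and HAC1 (3.74) (log2 change, 6 h minus 1.5 h). Those lower were MED7 (-4.48), MIN4 (-4.38), EFG1 (-3.59), RMD6 (-3.33), TIR2 (-3.12), AGA2 (-2.99), SSP1 (-0.78), GCN4 (-1.31), CPA1 (-1.08), HAP4 (-1.52) and EST3 (-1.21). Groups of 3 libraries are too small for a check of single libraries that stand apart. The 6 h libraries are shared by both comparisons.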

How the results depend on the processing

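At 6 h, 1876 genes higher and 1571 lower in footprints became 930 and 2682 without centring, 1054 and 1193 among genes of at least 100 RPKM in mRNA, and 778 and 905 with a difference of at least 1 required. Leaving out each library in turn gave 1638 to 1779 and 1322 to 1546. Against 3 h, 247 and 129 became 780 and 59 without centring, 169 and 198 with quantile normalisation, and 120 and 94 with at least 100 RPKM; leaving out each library gave 118 to 333 and 52 to 170. Against 1.5 h, 608 and 455 became 952 and 260 without centring and 289 and 384 with at least 100 RPKM; leaving out each library gave 385 to 754 and 260 to 630. The parallel libraries alone, an alternative chosen after seeing the data like the leaving out of 1.5 and 3 h libraries, gave 26 and 11 against 3 h and 85 and 74 against 1.5 h, with fewer samples in the fit. The sign turned with quantile normalisation for CLB3 (-0.49), SPS1 (-0.32), YRA1 (-0.16) and DSE1 (0.039) at 6 h, for SPS1 against 3 h (-0.59) and 1.5 h (-1.13) and for SPO20 against 1.5 h (-1.84), without centring for CLB3 (-0.38) and SPS1 (-0.40), and by name for DBP1 (-3.11); the cause was not tested. Of 1926 other values of genes named at 6 h, 1855 kept the side of the threshold, and the direction if called, as did 1025 of 1146 in time. A turn of sign with no call in either fit counted as kept and is not among the signs listed above. With single libraries left out, SPS1 at 6 h reached -0.015 and SSP1 against 3 h reached 0.13 in this way. Same-numbered libraries deviated together with correlations of 0.154 (course), 0.0099 and 0.037 (parallel). These values cannot settle whether the numbers pair them, since the noise of each assay enters the deviations. A replicate block gave 1931 and 1628 at 6 h, 220 and 170 against 3 h and 719 and 610 against 1.5 h. Depth limits low footprint values most in the footprint library of parallel replicate 2 (1.39 recovered counts, in units of 1000000).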

Other observations

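The filter on mRNA left out 1048 genes, of which 335 were at 0 RPKM in all 3 mRNA libraries of 6 h and 33 had a mean footprint level of at least 20 RPKM. Among those 33 were YLR162W (186 RPKM in footprints and 14.3 RPKM in mRNA), YGR269W (140.0 and 12.6 RPKM) and YOR082C (82.2 and 8.35 RPKM). They were picked after their values were seen and had no test.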
